A study of Mus musculus with 6 samples.

Results

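The FOXO factors and the sirtuins were examined as a set of 10 genes in articular cartilage of wildtype mice, with 3 FOXO genes (Foxo1, Foxo3 and Foxo4) and 7 sirtuin genes (Sirt1 to Sirt7). The genes were chosen by name from the 33971 genes of the table, and each name matched a single row. RNA sequencing compared 3 libraries of cartilage from mice aged 2 months with 3 libraries from mice aged 18 months, to follow the expression change of the tissue with age. All groups shared the wildtype genotype and received no treatment, and the study's methods describe male mice. For each gene and library there was a count, which is the number of fragments assigned to the gene, and an FPKM value, which is the count scaled by transcript length and by the size of the library. Levels of different genes are compared below only as FPKM. Nothing in the labels says whether a library came from a single animal or from pooled animals, so p-values measure the spread between these libraries.

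FOXO proteins are transcription factors that insulin and growth factor signalling keeps out of the nucleus through phosphorylation by AKT. When they are in the nucleus they raise genes of cell cycle arrest, autophagy and defence against oxidants, and in cartilage they are known for a role in autophagy and in lubricin expression. Sirtuins are enzymes that remove acetyl or longer acyl groups from proteins and consume NAD+ as they do so. Sirt1, Sirt6 and Sirt7 are mainly nuclear, Sirt2 is mainly cytosolic, and Sirt3, Sirt4 and Sirt5 are mitochondrial. Sirt1 can deacetylate FOXO proteins, which is why both families are often described together.

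The libraries held 48171507 to 59085179 counts, and the 10 genes had between 254 and 8717 counts in each library, so each was well above the filter on low counts. The libraries differed in more than age. A list of 16 chondrocyte markers took 4.53% to 7.04% of all counts at 2 months and 0.0701% to 0.175% at 18 months, and 16 of its 16 genes were called lower at 18 months. Each of the 16 markers had counts in both groups. A list of 14 neutrophil markers took 4.29% to 4.61% of all counts at 18 months, and at 2 months 0.00174% in replicate 1, 0.563% in replicate 2 and 0.0268% in replicate 3. The 2-month libraries thus differed widely among themselves, and 0 of the 14 neutrophil markers were called in edgeR, with 3 at an unadjusted p below 0.05. DESeq2 called 11 of them, and edgeR called 13 when 2-month replicate 2 and 18-month replicate 1 were left out. The erythroid list took 2.86% to 3.73% at 18 months and 0.0333% to 0.712% at 2 months. Xist, which is transcribed from the inactive X of female cells, ranged from 88239 to 102417 counts at 2 months and from 11 to 30 counts at 18 months. The 2-month counts are at odds with the male mice of the study's methods, and the reason was not tested. Age, the share of each cell type and the sex pattern of the libraries therefore cannot be told apart in this design. In such bulk samples, fewer cells of a type and less RNA per cell cannot be told apart either.

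Each gene was tested with edgeR's quasi-likelihood test, and calls required both an adjusted p-value (Benjamini-Hochberg, over all genes) below 0.05 and a log2 fold change of 18-month against 2-month cartilage beyond 1 in either direction. By this rule 3 of the 10 genes were called. Foxo1 and Sirt4 fell with age and Sirt7 rose. Over all 20397 genes tested 36.3% were called, 14.9% higher and 21.3% lower, so the number of called FOXO and sirtuin genes was near the background. The adjusted p-value alone was below 0.05 for 6 of the 10 genes, against 51.3% of all genes (23.4% higher and 27.9% lower). The 3 further genes, Foxo4, Sirt5 and Sirt6, had lower values at 18 months and did not reach the fold change limit. FPKM values of the ages did not overlap for 6 of the 10 genes, against 68.4% of all genes (35.6% with higher and 32.8% with lower values at 18 months). The median log2 fold change of the 10 genes was −0.33, and that of all genes tested was −0.02.

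**Figure D1:**
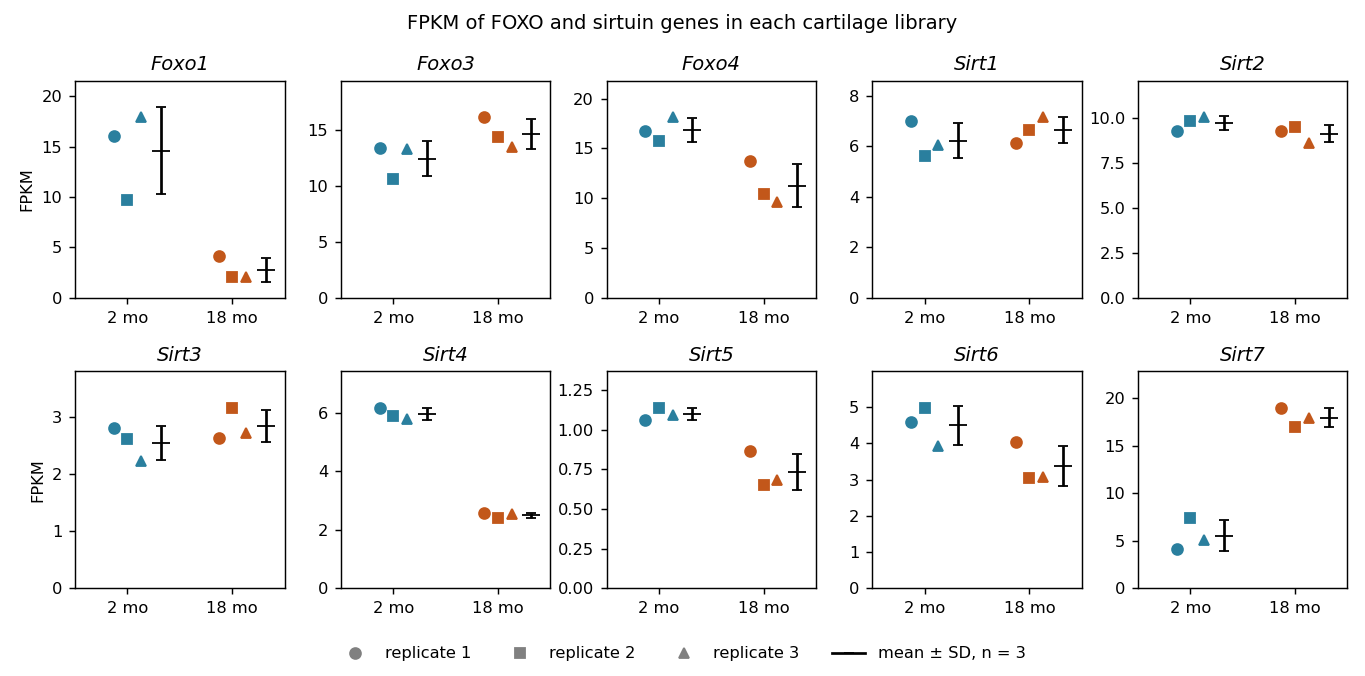
FPKM (vertical axes, from 0, with a scale of its own in each panel) of the 10 genes in the 3 libraries of each age (horizontal axes), with replicates 1, 2 and 3 as circles, squares and triangles and the mean ± SD (n = 3) in black. Foxo1 and Sirt4 lie lower and Sirt7 higher in every 18-month library, while the points of Sirt1, Sirt2 and Sirt3 overlap between the ages.

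Among the FOXO genes, Foxo1 fell the most. Foxo1 (ENSMUSG00000044167) lies on chromosome 3 from 52268336 to 52353221 on the plus strand of GRCm38, and the annotation gives it 1 transcript of 3 exons. Its FPKM was 16.1, 9.70 and 17.9 in 2-month replicates 1, 2 and 3, and 4.16, 2.03 and 2.08 in 18-month replicates 1, 2 and 3. Every 18-month library was below every 2-month library, and the highest 18-month value came from replicate 1. The mean was 14.6 ± 4.32 FPKM at 2 months and 2.76 ± 1.22 FPKM at 18 months (SD, n = 3 each). This was a level 5.68-fold lower, with a log2 fold change of −2.50 (standard error, SE, 0.40, adjusted p = 0.0048, edgeR). Foxo1 was called in each of 9 alternatives with all libraries and in each of 6 fits that left out 1 library. In those 6 fits its log2 fold change ran from −2.31 to −2.90, with an adjusted p-value of up to 0.025 (edgeR). The largest falls were −2.90 without 18-month replicate 1 and −2.74 without 2-month replicate 2.

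Foxo3 and Foxo4 did not follow Foxo1 in size. Foxo3 (ENSMUSG00000048756, chromosome 10, 42181841 to 42276752, minus strand), the FOXO factor best known for its link to lifespan, had an FPKM of 13.4, 10.7 and 13.3 in the 2-month libraries and 16.1, 14.3 and 13.4 in the 18-month libraries. The lowest 18-month value was just above the highest 2-month value, 13.45 against 13.37 FPKM. The log2 fold change of Foxo3 was 0.15 with a 95% interval from −0.24 to 0.54 (adjusted p = 0.47, edgeR), so a change past the fold limit lay outside the interval in both directions. Foxo4 (ENSMUSG00000042903, chromosome X, 101254528 to 101260873, plus strand) had an FPKM of 16.8, 15.7 and 18.1 at 2 months and 13.7, 10.4 and 9.64 at 18 months. All 3 of its 18-month values were below the 2-month values. Its log2 fold change was −0.67 (SE 0.16, adjusted p = 0.018, edgeR), which is under the fold limit. The adjusted p-value of Foxo4 was not below 0.05 without 2-month replicate 1 (0.051), 2-month replicate 3 (0.067), 18-month replicate 2 (0.073) or 18-month replicate 3 (0.069). Foxo4 is the X-linked gene of the set, so its values stand beside the Xist counts given above.

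The make-up of the FOXO transcripts was compared within each library, which does not depend on how libraries are scaled. At 2 months the FPKM ranges of Foxo4 and Foxo1, and of Foxo1 and Foxo3, overlapped. Foxo4 lay above Foxo3 without overlap (15.7 to 18.1 against 10.7 to 13.4 FPKM). Foxo1 supplied 34.8%, 26.9% and 36.3% of the summed FPKM of the 3 genes in the 2-month libraries, and 12.2%, 7.58% and 8.26% in the 18-month libraries. The share of Foxo3 was 28.9%, 29.6% and 26.9% at 2 months and 47.4%, 53.5% and 53.4% at 18 months. The shares of both genes did not overlap between the ages, and Foxo3 was the most abundant of the 3 in each 18-month library. The mean share of Foxo1 was 23.3 percentage points lower and that of Foxo3 23.0 percentage points higher at 18 months (exact permutation test, two-sided, p = 0.1 for each, which is the smallest value that 3 libraries against 3 can give). A share rises when another gene of the sum falls, and the level of Foxo3 itself was not called (log2 fold change 0.15). The mean share of Foxo4 was 38.9% ± 4.05 at 2 months and 39.2% ± 1.04 at 18 months (SD, n = 3 each). The summed FPKM was 46.3, 36.1 and 49.3 at 2 months and 34.0, 26.8 and 25.2 at 18 months. Foxo6, the remaining FOXO gene of the mouse, had at most 0.462 FPKM in any library and was left out of the sums.

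Of the nuclear sirtuins, Sirt7 rose, and Sirt1 and Sirt6 were not called. Sirt7 (ENSMUSG00000025138), a deacetylase that acts on histones and in the nucleolus, is encoded on the minus strand of chromosome 11, between 120618372 and 120625014. Its FPKM was 4.18, 7.37 and 5.06 in the 2-month libraries and 19.02, 16.9 and 18.0 in the 18-month libraries. The lowest 18-month value was above the highest 2-month value, which came from replicate 2. The mean was 5.54 ± 1.65 FPKM at 2 months and 18.0 ± 1.04 FPKM at 18 months (SD, n = 3 each). The log2 fold change of Sirt7 was 1.63 (SE 0.19, adjusted p = 0.0020, edgeR), a level 3.10-fold higher. It was called in each of the 9 alternatives with all libraries and in each of the 6 fits that left out a library, where the log2 fold change ran from 1.49 to 1.86.

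Sirt1 (ENSMUSG00000020063, chromosome 10, 63319005 to 63381704, minus strand), the sirtuin most studied as a deacetylase of FOXO proteins and p53, had an FPKM of 6.99, 5.62 and 6.07 at 2 months and 6.15, 6.63 and 7.15 at 18 months. The ages overlapped. Its log2 fold change was 0.011 with a 95% interval from −0.36 to 0.38 (adjusted p = 0.96, edgeR), which leaves room for a change of that size in either direction. Sirt6 (ENSMUSG00000034748, chromosome 10, 81621785 to 81627797, minus strand), which acts on chromatin in DNA repair and in control of glycolytic genes, had an FPKM of 4.59, 4.99 and 3.93 at 2 months and 4.03, 3.04 and 3.07 at 18 months. The ages overlapped through 18-month replicate 1. The log2 fold change of Sirt6 was −0.49 (SE 0.16, adjusted p = 0.0496, edgeR), at the edge of the threshold. Of the 6 fits that left out a library, only the fit without 18-month replicate 1 kept the adjusted p-value of Sirt6 below 0.05 (0.035), and the others gave 0.072 to 0.16.

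Sirt2 (ENSMUSG00000015149, chromosome 7, 28766735 to 28788660, plus strand), the cytosolic sirtuin that deacetylates tubulin, varied little. Its FPKM was 9.27, 9.82 and 10.04 at 2 months and 9.25, 9.50 and 8.59 at 18 months. The ages overlapped, and the log2 fold change was −0.17 with a 95% interval from −0.41 to 0.07 (adjusted p = 0.18, edgeR).

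Of the mitochondrial sirtuins, Sirt4 fell while Sirt3 was not called. Sirt4 (ENSMUSG00000029524), an enzyme with weak deacetylase activity that restrains glutamate dehydrogenase, is encoded on the minus strand of chromosome 5, between 115478010 and 115484725. Its FPKM was 6.18, 5.87 and 5.80 at 2 months and 2.57, 2.39 and 2.53 at 18 months. The values were close within each age and far apart between the ages. The log2 fold change of Sirt4 was −1.33 (SE 0.14, adjusted p = 0.0017, edgeR), a level 2.52-fold lower. Of the 9 alternatives with all libraries, 8 called it. With limma on log2(FPKM + 1) its log2 fold change was −0.99, just short of the fold limit.

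Sirt3 (ENSMUSG00000025486, chromosome 7, 140863666 to 140882309, minus strand), the main deacetylase of mitochondria, had an FPKM of 2.80, 2.62 and 2.22 at 2 months and 2.63, 3.16 and 2.73 at 18 months. The ages overlapped, and the log2 fold change was 0.08 with a 95% interval from −0.30 to 0.45 (adjusted p = 0.70, edgeR). Sirt5 (ENSMUSG00000054021, chromosome 13, 43365496 to 43395202, plus strand), which removes succinyl and malonyl groups, had the lowest level of the 10 genes at both ages. Its FPKM was 1.06, 1.14 and 1.09 at 2 months and 0.863, 0.654 and 0.683 at 18 months, without overlap. The log2 fold change of Sirt5 was −0.66 (SE 0.19, adjusted p = 0.030, edgeR). Its adjusted p-value was not below 0.05 without 2-month replicate 1 (0.066), 2-month replicate 3 (0.092), 18-month replicate 2 (0.11) or 18-month replicate 3 (0.10).

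**Figure D2:**
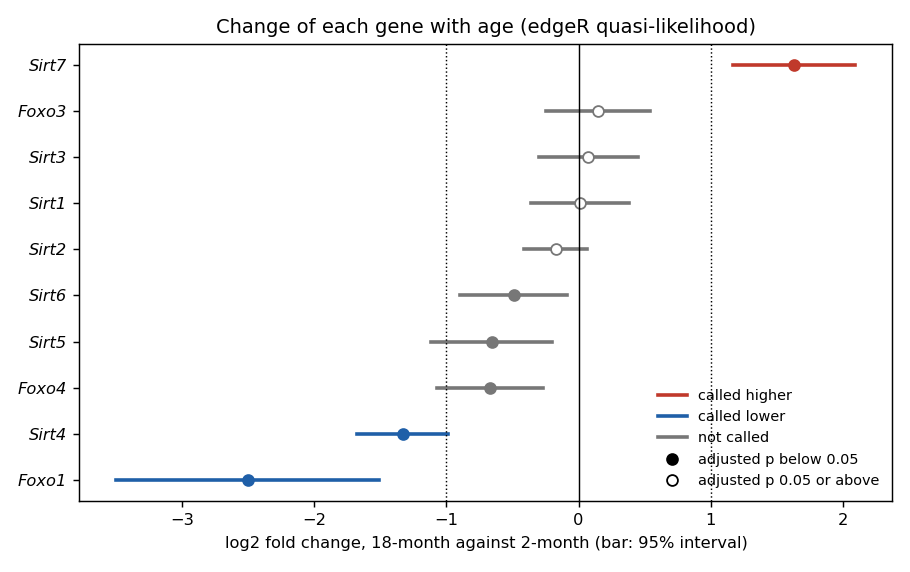
Log2 fold change of 18-month against 2-month cartilage (horizontal axis) for each of the 10 genes (vertical axis), with bars for the 95% interval, red for called higher, blue for called lower and grey for not called, and filled points for an adjusted p below 0.05 and open points otherwise. Dotted lines mark the fold limit, and the points run from −2.50 for Foxo1 to 1.63 for Sirt7.

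Within the sirtuin family the order of the levels differed between the ages. At 2 months Sirt2 had the highest FPKM, above Sirt1 without overlap, and the ranges of Sirt1 and Sirt4, of Sirt4 and Sirt7, and of Sirt7 and Sirt6 overlapped. At 18 months Sirt7 had the highest FPKM of all 10 genes, above Foxo3 without overlap. Sirt7 supplied 11.9%, 19.7% and 14.8% of the summed sirtuin FPKM at 2 months and 42.7%, 40.0% and 42.1% at 18 months. Sirt4 supplied 17.6%, 15.7% and 16.9% at 2 months and 5.76%, 5.65% and 5.91% at 18 months. The shares of Sirt2, Sirt5 and Sirt6 were also lower in every 18-month library, by means of 6.23, 1.39 and 4.82 percentage points. A share falls when another gene of the sum rises, and the level of Sirt2 itself was not called (log2 fold change −0.17). For Sirt7, Sirt4, Sirt2, Sirt5 and Sirt6 the exact permutation test (two-sided) gave p = 0.1, the smallest it can give with 3 libraries against 3. For Sirt1 it gave p = 0.3 and for Sirt3 p = 0.4 in the same exact permutation test. In all 10 shares were compared, 3 of FOXO genes and 7 of sirtuins. The summed sirtuin FPKM was 35.1, 37.4 and 34.2 at 2 months and 44.5, 42.3 and 42.7 at 18 months.

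**Figure D3:**
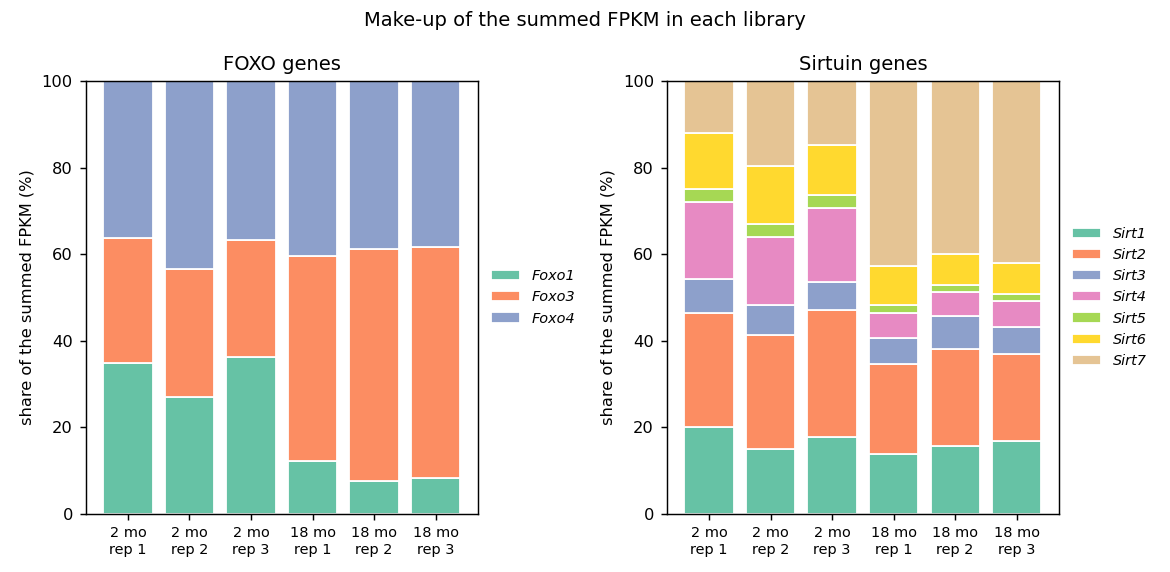
Share of the summed FPKM in percent (vertical axes) taken by each FOXO gene (left) and each sirtuin gene (right) in the 6 libraries (horizontal axes). Foxo1 narrows from at least 26.9% at 2 months to at most 12.2% at 18 months, and Sirt7 widens from at most 19.7% to at least 40.0%.

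The levels of the 3 called genes were set beside marker lists of the same libraries, first those of chondrocytes and neutrophils. Among the 2-month libraries, replicate 2 had the highest share of neutrophil markers (0.563%), the lowest Foxo1 (9.70 FPKM) and the highest Sirt7 (7.37 FPKM). That library also had the highest share of chondrocyte markers of its age (7.04%, against 4.53% and 5.59% in replicates 1 and 3). Among the 18-month libraries, replicate 1 had the highest share of chondrocyte markers (0.175%, against 0.0701% and 0.0719% in replicates 2 and 3) and the highest Foxo1 (4.16 FPKM). It had the highest Sirt7 of all libraries (19.02 FPKM) with the lowest shares of neutrophil (4.29%) and erythroid (2.86%) markers of its age. Its shares of monocyte and macrophage (0.316%), T and NK cell (0.0186%), B cell (0.0226%) and proliferation (0.274%) markers were the highest of its age. Among the 2-month libraries, replicate 2 had the highest share in each of these lists. Sirt4 was 5.87 FPKM in 2-month replicate 2, between the other libraries of that age, and 2.57 FPKM in 18-month replicate 1, close to the others. With both of these libraries left out, the log2 fold change was −3.14 for Foxo1, −1.37 for Sirt4 and 1.83 for Sirt7, and each was called. The pair was chosen after the data had been seen. For Foxo1 both were the libraries of their age nearest to the other age, so leaving them out widens its difference by choice. This fit is therefore no separate support for the calls. A list of 10 synovial and tendon fibroblast markers, which holds Prg4, took 3.59%, 1.65% and 3.73% of all counts in 2-month replicates 1, 2 and 3. At 18 months it took 0.789%, 0.183% and 0.182%. As for Foxo1, its lowest 2-month value was in replicate 2 and its highest 18-month value in replicate 1. Of the 2-month libraries, replicate 2 also had the highest osteoblast and osteocyte (1.77%) and osteoclast (0.598%) shares. The part of the cell types in the changes of the 3 genes was not tested.

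**Figure D4:**
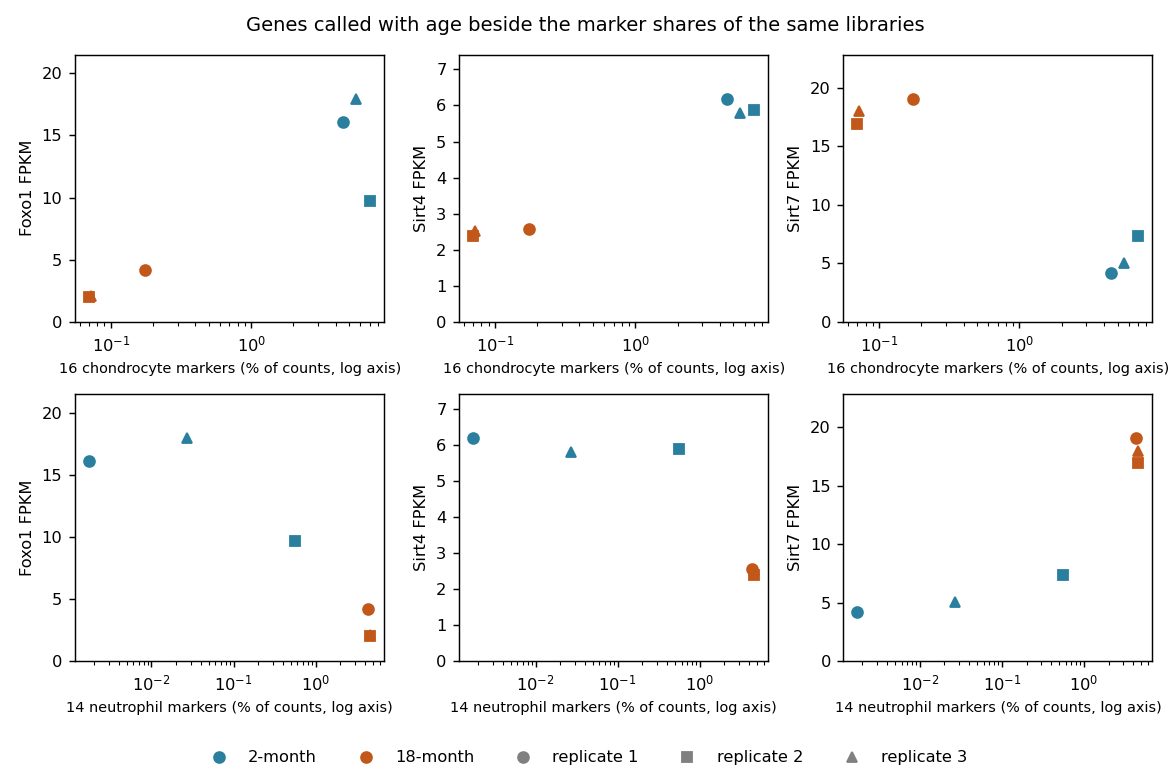
FPKM of Foxo1, Sirt4 and Sirt7 (vertical axes, from 0) against the percent of counts taken by 16 chondrocyte markers (upper row) and 14 neutrophil markers (lower row) in the same libraries (horizontal log axes), with colour for age and shape for replicate. The 2-month square, replicate 2, has 0.563% neutrophil markers. On the vertical axis it is the 2-month point nearest to the 18-month points for Foxo1 and Sirt7 but not for Sirt4.

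Likeness between the genes was described by Pearson's r of log2 CPM, the count scaled to library size, over the 6 libraries. The 6 libraries hold both ages, so a difference between the ages enters every r, and the values are given without a test. Foxo1 was most like Foxo4 (r = 0.987), and Sirt5 was most like Foxo1 (r = 0.981). Sirt4 was also most like Foxo1 (r = 0.956) and least like Sirt7 (r = −0.987). The highest r with any of the other genes was 0.540 for Sirt1 and Sirt3, 0.501 for Foxo3 and 0.252 for Sirt7.

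The start regions of the 3 called genes are shown because their transcripts changed with age, and because FOXO factors bind DNA at a short core element that can be looked for there. The windows come from RefSeq on GRCm38.p6 and cover 250 bases before the annotated start and 50 bases after it. Windows were given for 9 of the 10 genes, all but Foxo4. Capitals mark CCAAT boxes (CCAAT or its reverse complement ATTGG) in Foxo1 and the ETS-type element CCGGAAG in Sirt7. The window of Sirt4, which lies at a start inside the annotated span of the gene, held neither, and the first 148 bases of the Sirt7 window, which lie in the neighbouring gene Mafg, are left out.
Foxo1 (chr3:52268087-52268386, plus strand): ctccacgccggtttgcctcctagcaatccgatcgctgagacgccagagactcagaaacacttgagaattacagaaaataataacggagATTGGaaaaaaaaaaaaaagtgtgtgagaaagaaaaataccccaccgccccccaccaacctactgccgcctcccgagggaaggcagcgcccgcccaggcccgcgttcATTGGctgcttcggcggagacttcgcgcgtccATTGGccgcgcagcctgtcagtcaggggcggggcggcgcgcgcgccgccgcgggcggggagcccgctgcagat
Sirt4 (chr5:115484248-115484547, minus strand): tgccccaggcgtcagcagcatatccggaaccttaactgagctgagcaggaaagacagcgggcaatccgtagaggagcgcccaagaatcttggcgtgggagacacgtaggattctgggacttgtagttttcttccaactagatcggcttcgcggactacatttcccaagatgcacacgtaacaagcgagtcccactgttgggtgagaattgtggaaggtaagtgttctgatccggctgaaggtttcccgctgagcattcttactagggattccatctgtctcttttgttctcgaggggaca
Sirt7 (chr11:120624965-120625116, minus strand): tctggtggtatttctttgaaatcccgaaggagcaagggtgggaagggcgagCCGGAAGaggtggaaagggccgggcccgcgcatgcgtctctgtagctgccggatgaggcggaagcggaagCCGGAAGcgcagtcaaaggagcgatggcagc

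The windows differed in base composition. The Foxo1 window was 61.3% G and C with 31 CpG dinucleotides, and the Sirt4 window was 52.0% G and C with 15. The FOXO core element GTAAACA, searched on both strands, was in 0 of the 11 windows of the 9 genes, against 3.65% of all 32851 windows. CCAAT was in 4 of the 11 windows, against 37.4% of all windows, and CCGGAAG was in 3 of the 11, against 8.86%. The E-box CACGTG was in 1 of the 11 windows, that of Sirt1, which held it 2 times and lies at a start inside the annotated span of the gene, against 7.15% of all windows. All of these elements but the FOXO core element were chosen after the windows had been read.

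The genes around FOXO factors and sirtuins were taken from 6 lists, for signalling upstream of FOXO, for proteins that bind or modify FOXO, for FOXO target genes, for NAD+ synthesis, for other NAD+-using enzymes, and for sirtuin regulators and substrates. Of the 102 listed genes 99 were tested, and 17 were called higher and 17 lower (34.3%, against 36.3% of all genes tested). Of the 34 called genes, 25 were called in each of the 6 fits that left out a library.

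Upstream of FOXO, 3 of 19 genes were called higher and 5 lower (42.1%, near the 36.3% of all genes), with a median log2 fold change of −0.37 against −0.02 over all genes. The 5 called lower were Igf1r, Irs1, Irs2, Sgk1 and Prkaa2, which encode the IGF1 receptor, its adaptors and kinases, some of them named after their values were seen. Irs2 was called in only 1 of the 6 fits that left out a library (adjusted p up to 0.065, edgeR). Igf1r, Irs1, Sgk1 and Prkaa2 were called in each of them. Irs1, an adaptor that links the insulin and IGF receptors to PI3K, had the largest fall, from 13.98 ± 1.70 to 1.60 ± 0.0505 FPKM (SD, n = 3 each; log2 fold change −3.20, adjusted p = 0.00071, edgeR). Sgk1, a kinase related to AKT that also phosphorylates FOXO, fell from 40.0 ± 10.8 to 11.4 ± 2.74 FPKM (SD, n = 3 each; log2 fold change −1.90, adjusted p = 0.0039, edgeR). Stk4, a Hippo pathway kinase that phosphorylates FOXO under oxidative stress, had the largest rise, from 8.34 ± 5.02 to 37.5 ± 1.78 FPKM (SD, n = 3 each; log2 fold change 2.12, adjusted p = 0.0066, edgeR). Akt1 had 27.8 ± 3.89 FPKM at 2 months and 48.7 ± 2.24 FPKM at 18 months (SD, n = 3 each), with a log2 fold change of 0.74 (adjusted p = 0.0037, edgeR), under the fold limit.

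Proteins that bind or modify FOXO had a median log2 fold change of 0.64, and of 15 genes 4 were called higher and 1 lower (33.3%, near the 36.3% of all genes). By direction, 14.9% of all genes were called higher and 21.3% lower, and this difference was not tested. The Ywha genes encode adaptors that hold phosphorylated FOXO in the cytoplasm. Ywhah rose from 22.5 ± 3.35 to 70.6 ± 2.32 FPKM and Ywhaz from 38.2 ± 7.26 to 86.0 ± 1.92 FPKM (SD, n = 3 each). Their log2 fold changes were 1.58 and 1.10 (adjusted p = 0.0010 and 0.0023, edgeR). Ywhae, the most abundant of them, had a log2 fold change of 0.011 (adjusted p = 0.95, edgeR), and Ywhab one of 0.64 (adjusted p = 0.0081, edgeR). Setd7, a methyltransferase with FOXO among its substrates, fell with a log2 fold change of −1.68 (adjusted p = 0.0023, edgeR).

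Of 26 FOXO target genes 2 were called higher and 9 lower (42.3%, near the 36.3% of all genes), with a median log2 fold change of −0.38. Over all genes 14.9% were called higher and 21.3% lower, and the difference by direction was not tested. The targets did not move as a block. Bnip3, a mitophagy receptor that hypoxia also induces, had an FPKM of 396, 125 and 274 at 2 months and 19.8, 11.8 and 13.1 at 18 months (log2 fold change −4.26, adjusted p = 0.0024, edgeR). Every 18-month value was below every 2-month value, and 2-month replicate 2 was the lowest of its age. Prg4, which encodes the joint lubricant lubricin, had 5049 ± 2151 FPKM at 2 months and 642 ± 647 FPKM at 18 months (SD, n = 3 each; log2 fold change −3.10, adjusted p = 0.032, edgeR). It was not called without 2-month replicate 1, 2-month replicate 3, 18-month replicate 2 or 18-month replicate 3, where the adjusted p-value reached 0.10. Txnip, an inhibitor of thioredoxin and glucose uptake, had a log2 fold change of −0.43 (adjusted p = 0.13, edgeR).

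The FOXO core element was in the start windows of 4 of the 23 target genes with a window, Bcl2l11, Trim63, Sesn1 and Txnip. That was 15.4% of the windows of this list, against 3.65% of all windows, a difference that was not tested. In the other related lists the element was in windows of Akt1 and Mdm2. Bcl2l11 and Trim63 were also the targets with the largest rise and the largest fall among called genes, and the stretch around each match is shown because the same element stood before genes that changed in opposite directions. Capitals mark GTAAACA or its reverse complement TGTTTAC.
Bcl2l11 (chr2:128125799-128125829, plus strand): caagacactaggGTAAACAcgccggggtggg
Trim63 (chr4:134314914-134314944, plus strand): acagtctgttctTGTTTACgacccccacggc

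Bcl2l11, a promoter of apoptosis, had an FPKM of 0.940, 2.43 and 0.873 at 2 months and 3.09, 3.37 and 3.54 at 18 months (log2 fold change 1.19, adjusted p = 0.046, edgeR). The highest 2-month value was again that of replicate 2, and of the fits that left out 1 library only the fit without that replicate called the gene. It was called in 4 of the 9 alternatives with all libraries. Trim63, a ubiquitin ligase of muscle, had 158, 91 and 176 counts at 2 months and 0, 3 and 6 at 18 months (log2 fold change −5.77, adjusted p = 0.0058, edgeR). A list of 10 skeletal muscle markers moved with it, at 0.00896% to 0.0171% of all counts at 2 months and 0.000736% to 0.000857% at 18 months, with 2 of the 10 markers without a count at 18 months. The part of muscle tissue in the fall of Trim63 was not tested.

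**Figure D5:**
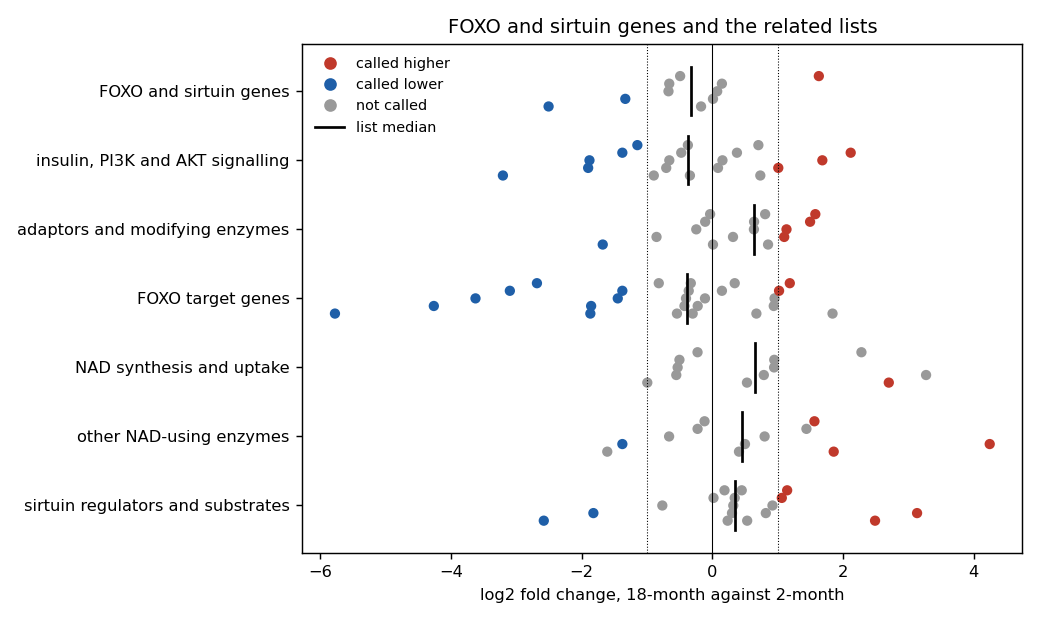
Log2 fold change of 18-month against 2-month cartilage (horizontal axis) for the 10 FOXO and sirtuin genes and the tested genes of each related list (vertical axis), with a point for each gene, red for called higher, blue for called lower, grey for not called, and a black line at the list median. FOXO target genes spread the widest on the lower side, to −5.77 for Trim63, and other NAD+-using enzymes on the higher side, to 4.25 for Bst1.

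NAD+ is the co-substrate of sirtuins. Of 12 tested genes that make it or carry it 1 was called (8.33%, against 36.3% of all genes, a difference that was not tested). Their median log2 fold change was 0.66, against −0.02 over all genes. The adjusted p-value alone (edgeR) was below 0.05 for 3 genes with higher and 2 with lower values, against 23.4% and 27.9% of all genes. The called gene was Qprt, an enzyme of synthesis from tryptophan, which was higher (0.180 ± 0.187 FPKM at 2 months and 1.23 ± 0.186 FPKM at 18 months, SD, n = 3 each; log2 fold change 2.70, adjusted p = 0.023, edgeR). Without 2-month replicate 2 it was called, and it was not called in the fits that left out any other library (adjusted p up to 0.069, edgeR). Nampt, the rate-limiting enzyme of NAD+ salvage, had an FPKM of 28.6, 13.8 and 34.9 at 2 months and 20.1, 17.9 and 19.4 at 18 months. The ages overlapped, because 2-month replicate 2 was below the 18-month libraries, and the log2 fold change was −0.53 (adjusted p = 0.27, edgeR). Slc25a51, the mitochondrial NAD+ carrier, had 14.6 ± 3.89 FPKM at 2 months and 26.4 ± 0.428 FPKM at 18 months (SD, n = 3 each; log2 fold change 0.79, adjusted p = 0.011, edgeR), under the fold limit. Nadsyn1 had a log2 fold change of −0.23 (adjusted p = 0.26, edgeR).

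Among 12 other enzymes that use NAD+, 3 were called higher and 1 lower (33.3%, near the 36.3% of all genes). Bst1, a surface enzyme that cleaves NAD+ and is abundant on cells of the myeloid lineage, had 8, 401 and 45 counts at 2 months and 3832, 2732 and 3111 at 18 months (log2 fold change 4.25, adjusted p = 0.036, edgeR). Its order over the 2-month libraries, lowest in replicate 1 and highest in replicate 2, was that of the neutrophil markers. The call of Bst1 was lost without 2-month replicate 3 and without each of the 18-month libraries (adjusted p up to 0.10, edgeR). Nadk, which turns NAD+ into NADP+, rose from 16.2 ± 5.22 to 61.5 ± 5.32 FPKM (SD, n = 3 each; log2 fold change 1.86, adjusted p = 0.0018, edgeR), and Nudt12, a hydrolase of NADH, fell with a log2 fold change of −1.38 (adjusted p = 0.0081, edgeR). Parp1, a DNA repair enzyme that competes with sirtuins for NAD+, had a log2 fold change of 0.80 (adjusted p = 0.061, edgeR), and Tnks2 one of −0.66 (adjusted p = 0.0051, edgeR).

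Of 17 tested regulators and substrates of sirtuins, 4 were called higher and 2 lower (35.3%, near the 36.3% of all genes). Hif1a, the hypoxia factor that Sirt1 and Sirt6 act on, fell from 54.4 ± 6.60 to 16.3 ± 0.998 FPKM (SD, n = 3 each; log2 fold change −1.82, adjusted p = 0.0012, edgeR). Ppargc1a, a coactivator of mitochondrial biogenesis that Sirt1 deacetylates, was low at both ages and fell from 0.136 ± 0.0589 to 0.0226 ± 0.00786 FPKM (SD, n = 3 each; log2 fold change −2.58, adjusted p = 0.010, edgeR). Acadl, a fatty acid oxidation enzyme and a substrate of Sirt3, rose from 16.2 ± 2.40 to 37.7 ± 1.96 FPKM (SD, n = 3 each; log2 fold change 1.15, adjusted p = 0.0015, edgeR). Glud1, the glutamate dehydrogenase that Sirt4 restrains, had 24.2 ± 2.12 FPKM at 2 months and 48.3 ± 2.71 FPKM at 18 months (SD, n = 3 each). The difference of 0.92 on the log2 scale (adjusted p = 0.0017, edgeR) was under the fold limit.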

How the data were processed

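The table the authors deposited held raw counts, as whole numbers, and FPKM values, scaled by transcript length and library size. Per the labels, poly(A)-selected, strand-marked libraries carried molecular identifiers, and the submitters' processing notes name cutadapt 1.9, HISAT2 2.0.4, UMI-tools, StringTie 1.3.4d, DESeq2 and edgeR without their roles. The strand setting of the counting and the genome build are not given in the sources used here. Of 33865 genes found in GENCODE M21 (GRCm38), 91.3% had identical coordinates there.

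All 6 libraries were fitted in R 4.3.3 with edgeR 4.0.16 (TMM, filterByExpr, quasi-likelihood test, no block), with Benjamini-Hochberg adjustment over 20397 genes, and the members' rows were read from that fit. Standard errors were derived from the log2 fold change and the F statistic. The fit was tested on simulated data. Alternatives were other scalings and filters, DESeq2 1.42.0, limma 3.58.1 on log2(FPKM + 0.1) and log2(FPKM + 1), a replicate block, and leaving out each library. Leaving out both libraries that stood apart was chosen after seeing the data. Replicate numbers did not pair the libraries (r of deviations −0.024 to 0.044 for equal numbers). Libraries of an age differed by at least 6.32 times the counting noise and were kept apart.

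The members and gene lists were chosen with earlier results of these data known. Named from each related list were the 3 genes with the highest mean FPKM and the called genes with the largest rise and fall, with some items not reported here. Figures used Python 3.11.15 and matplotlib 3.10.9.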

Additional observations from a re-analysis of the deposited data

How the results depend on the processing

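Between 2 and 3 of the 10 FOXO and sirtuin genes were called in every alternative, and limma on log2(FPKM + 1) gave the count of 2. The related genes called ranged from 25 to 45 over the fits that left out 1 library, and all genes called from 5640 to 9583. With the replicate block 5906 genes were called in all, with 3 FOXO and sirtuin genes and 30 related genes among them, and Sirt5 (adjusted p = 0.087, edgeR) and Sirt6 (adjusted p = 0.097, edgeR) were no longer below 0.05. Over the alternatives with all libraries the adjusted p-value was below 0.05 in 3 of 9 for Sirt6 (up to 0.10) and in 5 of 8 for Sirt5 (up to 0.087), and for Sirt2 it was below 0.05 in 1 of 9, at 0.043 with a mean FPKM of at least 1. Some genes that were not called had log2 fold changes near 0 that changed sign. Sirt1 was at −0.093 and Sirt3 at −0.028 with a mean FPKM of at least 1. With 1 library left out Sirt1 ran from −0.069 (without 2-month replicate 2) to 0.13 and was at −0.047 without 18-month replicate 3, and Sirt3 ran from −0.010 (without 18-month replicate 2) to 0.17. With both libraries that stood apart left out, Foxo3 was at −0.029 and Sirt1 at −0.011. The difference in the share of Foxo4 was 0.306 percentage points and ran from −0.975 to 2.64 when 1 library was left out, so it has no stable sign. The cause of these changes was not tested. With 3 libraries an age, no exact test of a share could pass 0.05.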

Other observations

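Some FOXO and sirtuin genes lie close to other genes. The span of Sirt3 overlaps that of Psmd13, a proteasome subunit, by 342 bases and that of Ric8a by 65 bases, both on the opposite strand. Psmd13 rose with a log2 fold change of 1.17 (adjusted p = 0.0010, edgeR), while that of Ric8a was 0.62 (adjusted p = 0.0071, edgeR) and under the fold limit. The libraries mark strand, but without the strand setting of the counting the reads in the overlaps cannot be assigned with certainty. Mafg, which ends 102 bases before the start of Sirt7 on the same strand, had 3745, 5204 and 4575 counts at 2 months and 10730, 8856 and 8688 at 18 months (log2 fold change 0.80, adjusted p = 0.0039, edgeR). Pcyt2, on the other side of Sirt7 and on the same strand, had a log2 fold change of −0.43 (adjusted p = 0.014, edgeR). The part of these neighbours in the rise of Sirt7 was not tested. Rinl, 308 bases from Sirt2 on the same strand, had 81, 756 and 151 counts at 2 months. At 18 months it had 5679, 4465 and 4462 (log2 fold change 3.70, adjusted p = 0.014, edgeR). Ankrd24, next to Sirt6 on the opposite strand, fell with a log2 fold change of −1.28 (adjusted p = 0.0056, edgeR).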
